A study of Mus musculus with 5 samples.

Results

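Cytosolic ribosomal protein genes encode the proteins that, with ribosomal RNA, build the small (Rps symbols) and large (Rpl symbols) subunits of the ribosome outside mitochondria. Their accessibility was read from ATAC-seq, in which a transposase inserts adapters where chromatin is open. The genes were chosen by symbol alone: protein-coding genes of the RefSeq table of GRCm38.p6 (the coordinates of mm10) named Rpl or Rps plus a digit or a, without the S6 kinases and pseudogenes, and with Rpsa, Rplp0, Rplp1 and Rplp2. This gave 89 of 21631 protein-coding genes on chromosomes 1 to 19 and X. Of these, 77 encode the canonical ribosomal proteins, 8 encode paralogues, and 4 carry another name that the rule also takes (Rpl37rt, Rps23rg1, Rpl32l and Rps19bp1, the last an RPS19-binding protein and not a subunit). Strand and exons are missing from the gene table, so a region was assigned to a gene when it lay within 1 kb of either end, and was called a gene-end region. Peaks of all libraries that overlapped by at least 1 bp were merged, and 146 of 86713 merged regions lay at an end of these 89 genes. All other protein-coding genes together with these accounted for 18178 gene-end regions, and the remaining regions were called distal.

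The study set 2 control embryos against 3 mutant embryos, each giving 1 library from 50K cells of its anterior forelimb pair at E11.5 (40 to 48 somites). Controls were Prx+/+;Smarcc1c/c and mutants PrxCre/+;Smarcc1c/c, so that both groups carry the conditional Smarcc1 allele and differ by the Cre. Prx-Cre is active in limb mesenchyme, so ectoderm, endothelium, blood and muscle precursors in the same limb keep Smarcc1, which encodes the BAF155 subunit of the BAF nucleosome remodeller. Embryos were genotyped singly, and their sex is not given in the labels. Libraries are numbered in sample order, and the numbers pair nothing.

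Ribosomal protein genes are transcribed in every growing cell and are a usual example of housekeeping promoters. Such promoters mostly lie in CpG-rich DNA and often lack a TATA box. In vertebrates the transcripts typically begin within a run of pyrimidines, the 5′ terminal oligopyrimidine (TOP) tract, through which their translation is regulated together. Because their chromatin is open in nearly all cell types, they were used as a standard inside each library, as the libraries are not on a common scale. Whether their own accessibility was unchanged in the mutants was not tested, so values set against them are relative only.

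The promoters of the members with the strongest and the weakest peaks, where the summit lay within 1000 bp of the start, show the sequence of this class, and are printed here from RefSeq (GRCm38.p6) as 60 bases before and 20 bases from the annotated start, 5′ to 3′. Capitals mark the ETS-factor sequence CCGGAAG, the GC box GGGCGG, the E-box CACGTG or the ZNF143 sequence, each on either strand, or a run of at least 6 pyrimidines within 5 bases of the start. The first 3 were strong in every library, and the Rps19 window holds none of these.
Rps19, chr7:24884532-24884611, plus strand: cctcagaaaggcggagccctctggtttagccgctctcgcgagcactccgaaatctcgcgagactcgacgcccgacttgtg
Rpl37, chr15:5116553-5116632, plus strand: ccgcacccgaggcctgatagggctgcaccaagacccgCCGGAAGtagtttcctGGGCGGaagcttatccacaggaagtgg
Rpl15, chr14:18270967-18271046, minus strand: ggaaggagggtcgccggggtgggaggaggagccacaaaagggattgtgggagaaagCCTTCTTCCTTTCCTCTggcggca
The next 4 were among the weakest members by mean rank over the 5 libraries, with Rps19bp1, which is not a subunit, not printed. At Rpl23 and Rpl6 mutant 3 had the lowest rank by far, at 27.9 and 23.4.
Rpl23, chr11:97782420-97782499, minus strand: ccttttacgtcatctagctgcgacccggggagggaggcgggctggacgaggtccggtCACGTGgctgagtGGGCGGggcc
Rpl6, chr5:121204441-121204520, plus strand: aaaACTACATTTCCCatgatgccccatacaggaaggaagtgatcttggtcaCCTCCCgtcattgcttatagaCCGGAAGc
Rps24, chr14:24490618-24490697, plus strand: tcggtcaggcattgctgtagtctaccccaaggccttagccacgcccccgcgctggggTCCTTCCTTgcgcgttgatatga
Rps4x, chrX:102189372-102189451, minus strand: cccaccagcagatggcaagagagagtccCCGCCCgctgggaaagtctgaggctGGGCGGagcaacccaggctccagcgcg
A pyrimidine run appears in the strong Rpl15 and the weak Rpl6 and Rps24, and a GC box in the strong Rpl37 and the weak Rpl23 and Rps4x. The ETS sequence appears in the strong Rpl37 and the weak Rpl6. Of the windows printed only Rpl23 holds the E-box and only Rpl6 the ZNF143 sequence. These are matches of letters and not measured binding sites.

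Over the class, the ETS sequence and a pyrimidine run at the start were more frequent than over all genes. A start was given for 69 members, 57 of them canonical, in windows of 250 bases before to 50 after the start, and a gene counted when any of its windows held the sequence. The ETS sequence was found at 24 of the 57 canonical genes (42.1%), against 13.1% of all 17274 genes with such a window and 19.5% of the 9744 genes that had a gene-end peak in all 5 libraries. A run of at least 8 pyrimidines at the start was found at 38.6% of canonical members, against 11.6% of all genes and 11.8% of those open in all libraries. With at least 10 pyrimidines the shares were 29.8%, 6.05% and 6.46%, and with at least 6 they were 50.9%, 24.2% and 24.0%. The YY1 sequence AAGATGGC stood at 8.77% of canonical members, 3.60% of all genes and 5.08% of open genes. The GC box was found at 61.4% of canonical members, 49.8% of all genes and 70.5% of open genes, and CCAAT at 31.6%, 42.7% and 43.2%. For the E-box the shares were 10.5%, 9.02% and 11.7%, for the NRF1 sequence 8.77%, 7.25% and 11.4%, and for the ZNF143 sequence 3.51%, 2.96% and 4.84%. TATAAA was found at 10.5% of canonical members, 14.9% of all genes and 8.08% of open genes. GC content differed little, with a median of 58% over the members' windows and 56.7% over all windows. Windows of a gene with several starts are not independent, and no test was made.

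Before the members' values, the libraries are described once. The lists held 68959 and 60333 peaks in control 1 and control 2, and 36719, 42794 and 27194 in the 3 mutants. The mean fragment number expected per position, recovered from the even steps of the fold, was 4.77 and 6.42 in the controls against 5.48, 5.09 and 4.95 in the mutants, and read numbers are unknown. Mutant 3 stood apart, with the shortest list and gene-end peaks at 5 of 8 limb mesenchyme markers (8 of 8 in each of the other 4 libraries) and at 0 of 5 muscle precursor markers (5 and 4 in the controls, 3 and 4 in the other mutants). Blood markers had peaks at 2 of 5 genes in every library, with Gata1, Ptprc and Hbb-bt at none, and endothelial markers at 3 and 1 of 5 in the controls against 1 of 5 in each mutant, with Cdh5 and Pecam1 at none. Ectodermal markers had peaks at 4 or 5 of 6 genes, with Trp63 at none, and neural crest and glia markers at 3 or 4 of 4. Many of these are open to some degree in more than 1 cell type, and the part of cell composition in the results below was not tested. The gene end of Smarcc1 (chromosome 9, 110130829 to 110132866) had folds of 10.9 and 10.2 in the controls against 9.26, 8.38 and 8.41 in the mutants. Where the conditional deletion lies is not given in the labels, so this peak does not check it.

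Nearly every ribosomal protein gene was open in every embryo. In the controls 82 and 84 of the 89 genes had a gene-end peak, and in the mutants 81, 83 and 81 had 1. The groups overlapped in this count, and the difference of means of −1.33 genes (−1 without mutant 3) gave p = 0.4 (exact two-sided permutation test over libraries, for which 2 against 3 gives a smallest p of 0.2). A gene-end region with a peak in all 5 libraries was found for 81 members, against 56.6% of all protein-coding genes with a gene-end peak in every library. Of the canonical genes 75 of 77 were among these, of the paralogues 5 of 8 and of the other names 1 of 4. A p that misses the threshold in so small a design does not show that the counts were equal.

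Both canonical genes outside the 81 have an open region in the gene body, just beyond the 1 kb window. Rps2, whose product lines the mRNA entry channel of the small subunit, has a region at chromosome 17, 24719377 to 24720521, which holds its start in the promoter table (24720063) and lies 1256 bp from the nearer gene end of the gene table. Its folds were 9.19 and 10.2 in the controls against 8.18, 9.20 and 6.06 in the mutants. The region that the rule does assign to Rps2 lies beside Ndufb10 and had a weak peak in control 2 (3.10) and mutant 2 (3.78) only. Rpl17, a large-subunit protein at the rim of the peptide exit tunnel, has a region at chromosome 18, 75000202 to 75001277, 1224 bp from its nearer end. Its folds were 8.15 and 9.84 in the controls against 8.79, 11.2 and 7.06 in the mutants. All canonical cytosolic ribosomal protein genes thus had a region with a peak in all 5 libraries at an end or in the gene body.

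The remaining members without a peak in all libraries were copies and other names. No gene-end region was found for Rpl10l and Rpl39l, paralogues of Rpl10 and Rpl39 known from the testis, for the retrogene Rps27rt, or for Rpl32l. The retrogene Rps23rg1 had a peak of fold 3.47 in control 1 and 3.37 in control 2, at its start on chromosome 8, and none in the mutants. Rpl37rt, also a retrocopy, had a peak of 3.12 in mutant 2 and another of 2.43 in control 2, both beside Acads. All of these peaks were close to the lowest fold of their list, which was 2.29 to 2.52, so that absence from a list can still mean accessibility below that floor. The 5 paralogues open in all libraries reached ordinary levels. Rpl36al, a copy of Rpl36a, had folds of 13.4, 11.7, 9.72, 11.0 and 7.57 in the order control 1, control 2, mutants 1, 2 and 3, at a region shared with Mgat2. Rpl22l1, the paralogue of Rpl22, had 10.9, 11.7, 6.79, 9.85 and 8.75 in the same order. Rps27l, the paralogue of Rps27 known as a p53 target, had 8.84, 8.08, 7.25, 8.21 and 7.57. Rpl7l1 had 8.67, 8.08, 6.33, 8.70 and 6.06. Rpl3l, the paralogue of Rpl3 found in striated muscle, had 8.84, 9.16, 6.02, 6.90 and 7.23, but only at its far end, which is shared with Msrb1, and no region lay at its starts.

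The members' median fold was above that of all protein-coding genes in each library. It was lower in every mutant than in either control, as was that of other shared regions. For each gene the principal region was taken as the gene-end region with a peak in most libraries, then with the highest mean fold, and the fold is the authors' own pileup over background at the strongest summit, within a library. The median fold over members with a peak was 9.62 and 9.70 in controls 1 and 2, against 7.87, 9.20 and 7.23 in mutants 1 to 3. All 3 mutants lay under both controls. The means were 9.66 ± 0.0556 (SD, n = 2) and 8.10 ± 1.00 (SD, n = 3), 16.2% lower in the mutants, with p = 0.2, the smallest the exact permutation test can give here. The difference of −1.56 was −1.13 without mutant 3. Over the principal regions of all protein-coding genes, members included, the medians were 9.02 and 8.49 in the controls against 7.10, 8.21 and 6.39 in the mutants. These cover principal regions with a peak in all libraries. The fold is not scaled between libraries, and other regions shifted alike. Other gene-end regions with a peak in all libraries (11257) had medians of 8.84 and 8.22 in the controls against 6.94, 8.05 and 6.22 in the mutants, and distal regions with a peak in all libraries (8224) had 6.24, 5.52, 4.94, 4.93 and 4.21. The mutant means were 17.1% and 20.3% lower, each at p = 0.2 (exact permutation test). Fewer cells with an open region and less opening in each cell cannot be told apart in these bulk libraries.

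**Figure D1:**
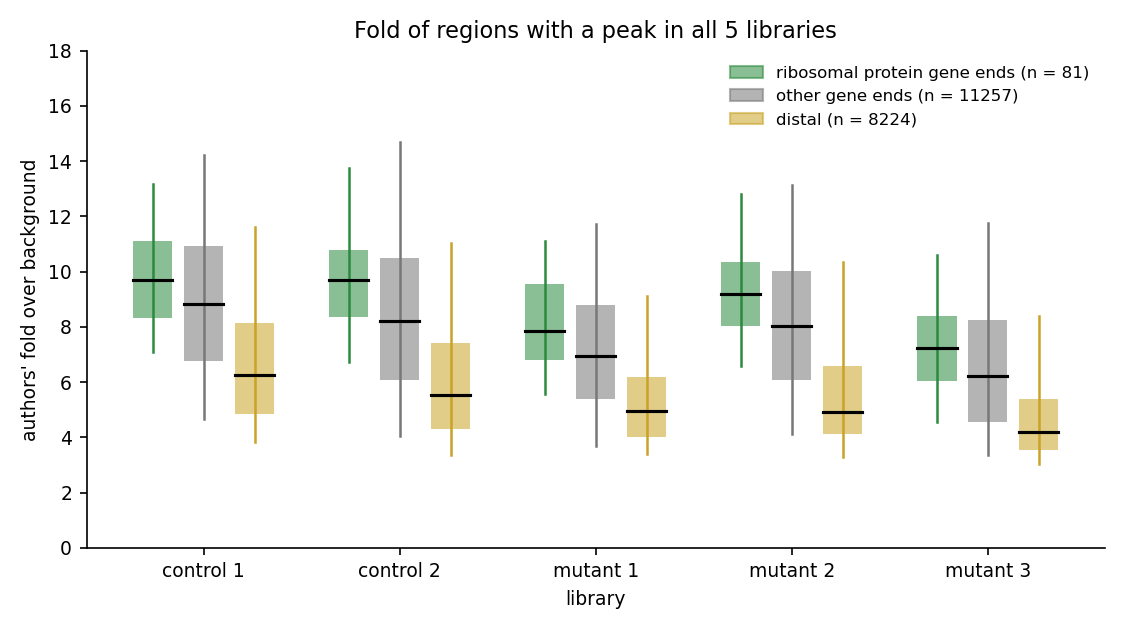
Authors' fold over background (y axis, linear) in each library (x axis) for regions with a peak in all 5 libraries: 81 ribosomal protein gene ends, 11257 other gene ends and 8224 distal regions. Boxes span the quartiles, black lines are medians and thin lines run from the 5th to the 95th percentile. The 3 sets shift together between libraries, with the ribosomal protein median highest in each. Ribosomal protein gene ends are principal regions only, while other gene ends include second regions.

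Read against the ribosomal protein genes as a standard, the relative strength of other shared regions overlapped between genotypes. The median fold of other shared gene-end regions was 0.919 and 0.847 of the ribosomal protein median in the controls against 0.882, 0.875 and 0.860 in the mutants, with the mutant values inside the control range (p = 0.8, exact permutation test). For shared distal regions the ratio was 0.649 and 0.569 in the controls against 0.627, 0.536 and 0.581 in the mutants, again overlapping (p = 0.6, exact permutation test). Both small differences took the opposite sign without control 1, at 0.0254 and 0.0194. Regions shared by all libraries are those that still had a peak in each mutant, so these ratios leave out what was lost. The other gene-end set includes second regions, while the members' median covers principal regions only. With principal regions of all protein-coding genes, members included, the ratio was 0.937 and 0.875 in the controls against 0.902, 0.893 and 0.884 in the mutants.

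A count that does not require sharing is the number of peaks at or above the ribosomal protein median of the same library. There were 4506 and 3854 such gene-end peaks in the controls against 4284, 4097 and 4211 in the mutants, means of 4180 and 4197 (p = 1, exact permutation test). The mutant values lay between the control values. There were 1135 and 865 such distal peaks in the controls against 881, 686 and 793 in the mutants, with means of 1000 ± 191 (SD, n = 2) and 787 ± 97.7 (SD, n = 3). Control 2 lay under mutant 1, and p was 0.4 (exact permutation test). Without control 1 the difference of −213 peaks shrank to −79.3. The number of peaks of any strength was 45.0% lower in the mutants (p = 0.2, exact permutation test), and that of strong distal peaks 21.3% lower. As a share of all distal peaks the strong ones made up 2.197% and 2.00% in the controls against 4.24%, 2.64% and 6.15% in the mutants, higher in every mutant (p = 0.2, exact permutation test), in lists with 58.1% fewer distal peaks. Distal peaks made up 20.1% and 18.3% of all peaks at or above the standard in the controls against 17.1%, 14.3% and 15.8% in the mutants, which did not overlap (p = 0.2, exact permutation test).

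**Figure D2:**
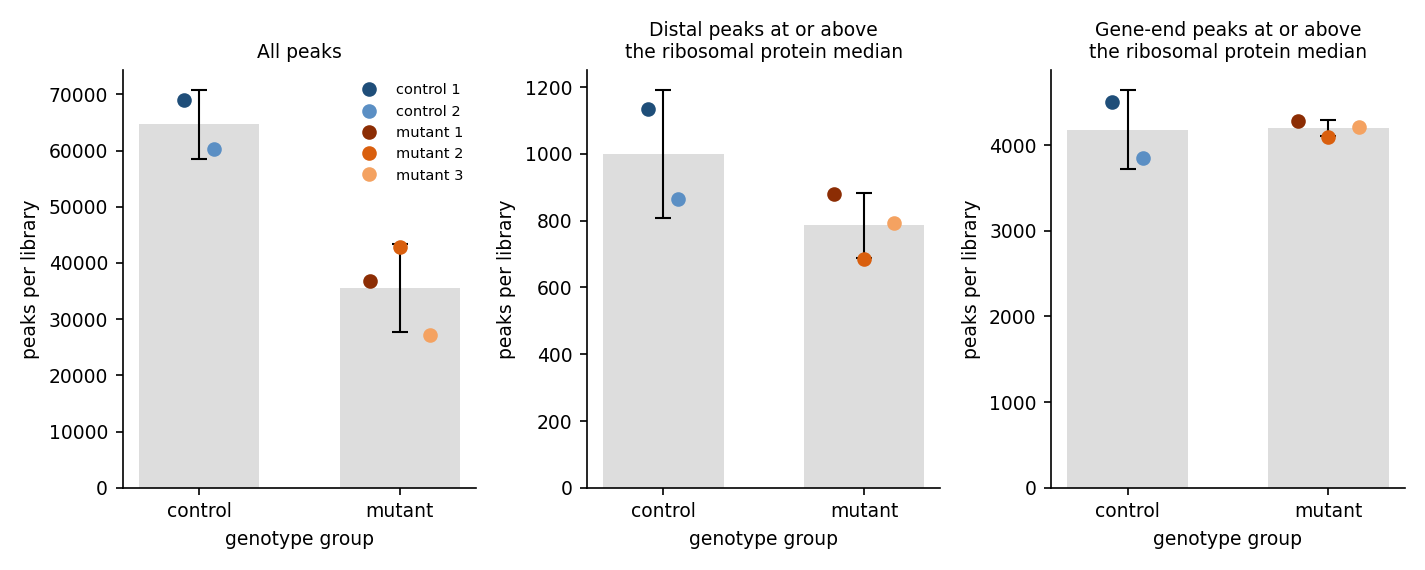
Number of peaks per library (y axes, linear from 0) by genotype: all peaks, distal peaks and gene-end peaks at or above the median fold of ribosomal protein gene ends in the same library. Points are libraries, bars are group means and error bars are ± 1 SD (n = 2 controls, 3 mutants); the groups separate for all peaks and overlap in both other panels.

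Strong distal regions of the controls were seldom missing from the mutant lists. Of 669 distal regions at or above the ribosomal protein median in both controls, 661 (98.8%) had a peak in every mutant, and 510, 428 and 470 were at or above the standard in mutants 1, 2 and 3, a mean of 70.2% ± 6.13 (SD, n = 3). Of 3294 other gene-end regions chosen alike, all had a peak in every mutant and 89.1% ± 2.81 (SD, n = 3) were at or above the standard. This comparison was chosen after the data were seen, and regions picked as high in the controls tend to be lower elsewhere, so these shares are no measure of a difference between genotypes. Both sets had control folds far above the lowest fold of any list (2.29 to 2.52). Presence of a peak in the mutants therefore shows little. Taken both ways between single libraries, 49.0% to 64.8% of the strong distal regions of a control were also strong in a mutant, and 64.0% to 81.1% of those of a mutant were also strong in a control. Between the controls the share was 59.3% from control 1 to control 2 and 77.6% in the other direction, and between mutants it was 60.5% to 82.4%. These shares overlap within and between genotypes and depend on how many strong regions the first library has. For other gene ends they were 73.9% to 86.7% between the controls, 76.2% to 85.8% from control to mutant and 75.01% to 84.7% from mutant to control.

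Within the class the order of strength was partly shared between libraries. To compare libraries, each fold was turned into its rank percentile among the 19579 regions with a peak in all 5 libraries, where 100 is the strongest. The median rank of the 81 members was 72.4 and 76.6 in the controls against 74.5, 76.4 and 75.4 in the mutants, with the mutants inside the control range (p = 0.8, exact permutation test), and without control 1 the difference of 0.90 became −1.21. Folds of the 81 regions correlated between libraries with Pearson's r of 0.691 to 0.833 and Spearman's rho of 0.688 to 0.821, as a description over genes that share length of peak, base composition and library. Pairs within a genotype (0.733 to 0.833) and between genotypes (0.691 to 0.823) covered the same range of r. The coefficient of variation of the fold over members was 19.7% and 22.7% in the controls against 22.4%, 20.7% and 25.9% in the mutants (p = 0.6, exact permutation test). Members ranged widely, from a mean rank of 18.9 to 96.3, and 40 of 81 had a mean rank of at least 75. In the top 10% of all shared regions by mean rank stood 12 of the 81 regions, against 15.1% of all gene-end regions of all libraries. The latter share covers second regions as well as principal ones.

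The strongest members encode proteins of both subunits. Rps19, whose loss of 1 copy in people is the classic cause of Diamond-Blackfan anaemia, had folds of 14.0 and 14.8 in the controls against 12.2, 14.3 and 10.1 in the mutants. Its mean rank of 96.3 was the highest of all members, and control and mutant folds overlapped. Rpl37 had 11.6 and 16.4 in the controls against 12.7, 14.0 and 14.1 in the mutants, at a region shared with Card6, with the mutants inside the control range and control 1 the lowest. Rpl15 had 13.0 and 15.9 in the controls against 10.3, 11.8 and 10.9 in the mutants, all mutants below. Rps14, the gene behind the anaemia of the human 5q deletion syndrome, had 11.8 and 13.7, then 11.1, 13.3 and 10.4, overlapping between genotypes. Rpl41, which encodes a peptide of very short length, had 15.8 and 13.7, then 11.1, 11.496 and 8.75, with the 3 mutants lowest, at a region shared with Zc3h10. Its summit lay 1340 to 1497 bp downstream of the Rpl41 start in the 5 libraries, beyond the other end of this short gene, so the fold is not that of the Rpl41 promoter.

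The weakest member in all libraries was X-linked. Rps4x, a small-subunit protein with a Y-linked counterpart in humans, had folds of 5.37 and 5.12 in the controls against 3.70, 4.43 and 3.70 in the mutants, all mutants lower, and a mean rank of 18.9. The next member stood far above it in rank: Rps24, with a mean rank of 46.9, had 6.76 and 7.82 in the controls against 5.86, 6.41 and 4.54 in the mutants. The other 3 X-linked members did not share the low level. Rpl10 had folds of 10.2, 9.70, 10.6, 10.5 and 7.91 in the order control 1, control 2, mutants 1 to 3, Rpl36a had 9.02, 9.97, 7.56, 8.21 and 6.39, and Rpl39 had 8.50, 8.08, 5.09, 6.57 and 6.90. Rps19bp1 had 6.76 and 7.01 in the controls against 5.09, 7.88 and 5.55 in the mutants, overlapping between genotypes. Rpl6 had 8.32 and 7.41, then 6.94, 6.57 and 3.87, and Rpl23 had 8.50 and 7.55, then 6.33, 7.06 and 4.04. In both, mutant 3 was the lowest by a wide gap.

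At Rpl19 a stronger region lay outside the 1 kb window. Its principal region, shared with Cacnb1, had folds of 7.98 and 6.74 in the controls against 5.55, 6.73 and 4.71 in the mutants. Another region, inside the gene (chromosome 11, 98026058 to 98027571) holds a start of the promoter table, lies 2922 bp from the nearer end and was stronger in each library, at 8.67, 8.89, 8.49, 7.39 and 7.40 in the same order. Rpl18 likewise has a start at an inner region (chromosome 7, 45717550 to 45718822, folds 7.98, 9.70, 8.49, 8.05 and 6.39), which is at an end of Sphk2. For Rpl4 the principal region is the end shared with Snapc5, with 9.88, 9.43, 10.5, 12.2 and 5.21, and its start region (chromosome 9, 64172272 to 64173934) had 8.32, 6.33, 5.71, 6.24 and 5.21. In mutant 3 both Rpl4 regions had the same fold.

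**Figure D3:**
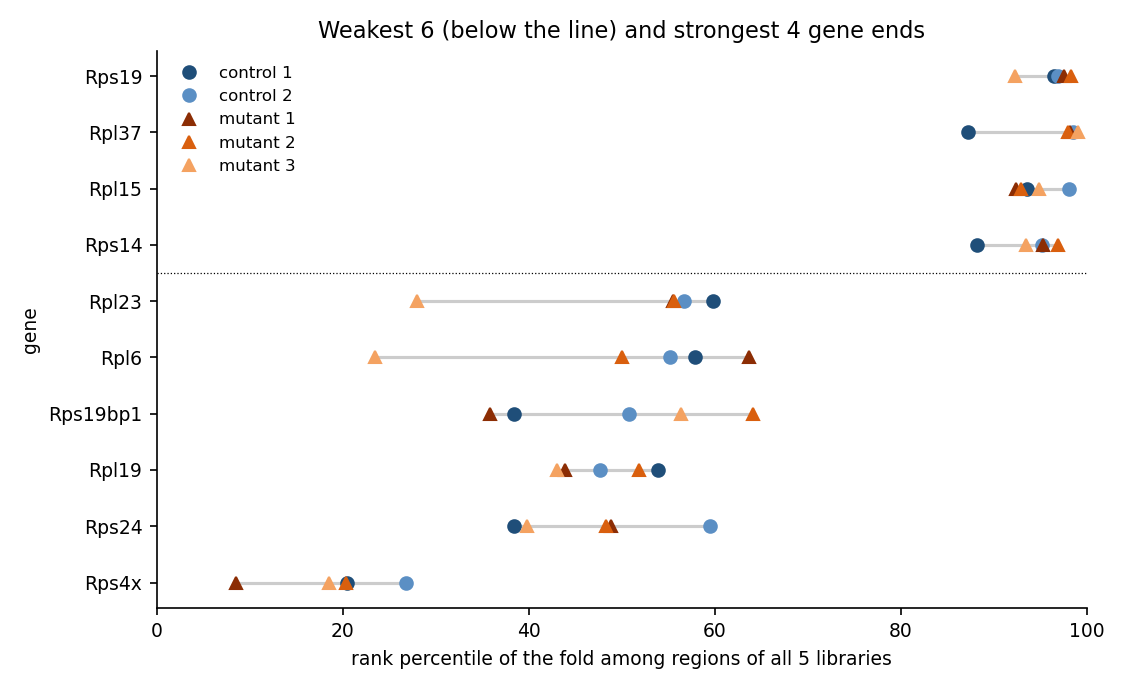
Rank percentile of the fold among regions with a peak in all 5 libraries (x axis) for the 4 strongest and 6 weakest gene ends by mean rank (y axis); each symbol is a library and grey lines join the lowest and highest. The strongest 4 stay above 85 in every library, Rps4x lies alone at the bottom, and mutant 3 sets the low values of Rpl23 and Rpl6.

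The ribosomal stalk genes differed among themselves. Rplp0, the stalk's base, had folds of 11.3 and 11.6 in the controls against 8.33, 10.2 and 6.22 in the mutants, all mutants lower. Rplp1 had 7.11 and 9.70, then 7.25, 7.55 and 5.72, and Rplp2 had 10.9 and 10.6, then 10.5, 12.8 and 9.59, both overlapping between genotypes. Rpsa, also known as the laminin receptor precursor, had 9.19 and 11.0 in the controls against 7.56, 9.20 and 7.57 in the mutants, at a region shared with Slc25a38, with mutant 2 just above control 1. By subunit, members with Rps symbols (32) had median folds of 9.36 and 9.03 in the controls against 7.56, 8.87 and 6.90 in the mutants, and those with Rpl symbols (49) had 9.88 and 9.70, then 8.02, 9.53 and 7.23. The large-subunit median was the higher in each library.

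Between genotypes the members' ranks moved in either direction, as those of other regions did. The mean rank was higher in the mutants for 44 members and lower for 37, with a median difference of 0.95 (range −11.9 to 17.5). Over other shared gene-end regions the median difference was 0.92, with 55.7% above 0, against 54.3% of the members. Ranks did not overlap between genotypes, with every mutant higher, at 13 of 81 members, against 12.1% of all gene-end regions of all libraries. Every mutant was lower at 4 of 81 (Rps4x, Rpl23, Rplp0 and Rps29), against 8.36%. In the fold itself every mutant was lower than both controls at 38 of 81 members, against 40% of gene-end regions, and every mutant higher at 0, against 0.299%. The shares over gene-end regions cover second regions as well as principal ones. Mutant 3 had the lowest fold at 54 members and mutant 1 at 22, and controls 1 and 2 had the highest at 37 and 27. These counts were not made over other gene-end regions, whose median fold was also lowest in mutant 3, so they are no trait of the members.

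The largest positive difference in rank was at Rpl24, whose mutation in the Belly spot and tail mouse alters skeleton and pigment. Its ranks were 53.9 and 47.7 in the controls against 57.6, 73.4 and 73.8 in the mutants, a difference of 17.5 that was 1.26 with gene ends within 2 kb, where another region became its principal 1. Rpl18 had 56.0 and 73.4, then 80.2, 85.1 and 76.8, a difference of 16.0 that was 7.21 without control 1 and 24.6 without control 2, and 5.71 at the inner region that holds its start. Rps15a had 70.7 and 67.5, then 88.2, 77.7 and 86.5, a difference of 15.1. Rpl5, which binds MDM2 with Rpl11 when ribosome assembly fails, had 63.6 and 73.4, then 86.2, 76.4 and 80.9, a difference of 12.6 that was 7.63 without control 1. All mutants were above both controls at these 4 genes, which were chosen for their size of difference, so no test is given. At the other end, Rpl23 had ranks of 59.8 and 56.7 in the controls against 55.5, 55.6 and 27.9 in the mutants, and its difference of −11.9 was −1.90 without mutant 3. Rpl6 had 57.9 and 55.2, then 63.6, 50.1 and 23.4, and −10.8 became 0.54 without mutant 3. Rplp0 had 85.1 and 88.4, then 78.9, 84.0 and 65.1, and −10.8 became −4.25. Rpl3, a protein near the peptidyl transferase centre, had 65.4 and 76.6, then 67.3, 62.4 and 53.9, and −9.80 became −4.83 without mutant 3 and −4.18 without control 2. At all 4 genes the difference was nearer to 0 without mutant 3, the library that also stood apart in markers and list length.

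Peaks missing from mutants were those of weak regions. Nearly all were second regions, but the principal region was chosen for a peak in most libraries, so this follows largely from that choice. A second region can also hold a start, as at Rpl4. Of 113 gene-end regions of members with a peak in both controls, 3 had no peak in any mutant, against 4.64% of all gene-end regions of both controls. A peak was missing in at least 1 mutant at 15, against 18.7%. Mutants 1, 2 and 3 lacked 5, 3 and 15 of the 113, against 8.78%, 6.88% and 16.9% of all such regions. All 15 were missing from mutant 3, and without it the count was 5. The first count, 3, became 16 without control 1, 5 without control 2 and 5 without mutant 2, and the second became 32 without control 1.

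Missing peaks followed strength. With the gene-end regions of both controls in 4 equal classes by control strength, 15 of 20 member regions in the weakest class lacked a peak in at least 1 mutant, against 66.6% of all such regions in that class. In the next class it was 0 of 21, against 8.34%. In the third it was 0 of 42, against 0.143%, and in the strongest 0 of 30, against 0%. Regions absent from every mutant were 3 of 20 in the weakest class, against 17.5%, and 0 in the others, against 1.09%, 0.0286% and 0% from weaker to stronger. The 3 were the Rps23rg1 start, a second region of Rpl12 (folds 3.64 and 3.37 in the controls) and a second region of Rps15a (3.64 and 2.83). No second region had a peak in all mutants and no control.

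Many members had second regions. More than 1 gene-end region was found for 44 members, and Rps15a had the most, with 5. The like count over all protein-coding genes was not made, so these numbers describe the members only. Of 62 second regions, 17 had a peak in all libraries and 22 in a single library. Their number per library was 35 and 46 in the controls against 35, 44 and 19 in the mutants, overlapping between genotypes (p = 0.6, exact permutation test), with mutant 3 the lowest. All member regions with a peak numbered 117 and 129 in the controls against 116, 127 and 100 in the mutants (p = 0.4, exact permutation test). Those missing from mutant 3 alone include weak second regions of Rpl9, Rpsa, Rps10 and Rps14, whose folds in the other 4 libraries lay between 3.09 and 5.72.

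Some principal regions were shared between genes. A principal region lay at an end of another protein-coding gene for 24 of 81 members, against 18% of gene-end regions of all libraries. The 18% covers second regions as well as principal ones, so the shares are of unlike sets and show no excess among the members. Examples in alphabetical order are Rpl10a (with Fance), Rpl12 (Lrsam1), Rpl15 (Nkiras1), Rpl19 (Cacnb1), Rpl24 (Gm6958) and Rpl35a (Iqcg). At such regions the peak cannot be given to either gene alone. Median peak width was 1178.5 and 1214 bp in the controls against 1121, 1202 and 1001 bp in the mutants (p = 0.4, exact permutation test), while other shared gene-end regions had medians of 1361, 1258, 1149, 1196 and 897 bp (p = 0.2, exact permutation test). Mutant 3 had the narrowest peaks in both sets.

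The summit, the base of highest pileup, lay close to the start. At 58 members whose principal region holds a start of the promoter table, its median position was 55 and −15 bp from the start in the controls against 3, 61 and 45 bp in the mutants, where negative is upstream. Within 250 bp of the start lay 84.5% and 91.4% of summits in the controls against 81.0%, 86.2% and 91.4% in the mutants. At 8614 other genes measured alike the shares were 73.2%, 79.0%, 74.9%, 76.8% and 77.6%, lower in each library. Summits lay on both sides of the start, with 0 to 5 of the 58 in the 50 bases before it. The upstream share was 34.5% and 51.7% in the controls against 50.0%, 31.0% and 43.1% in the mutants, with no separation by genotype.

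**Figure D4:**
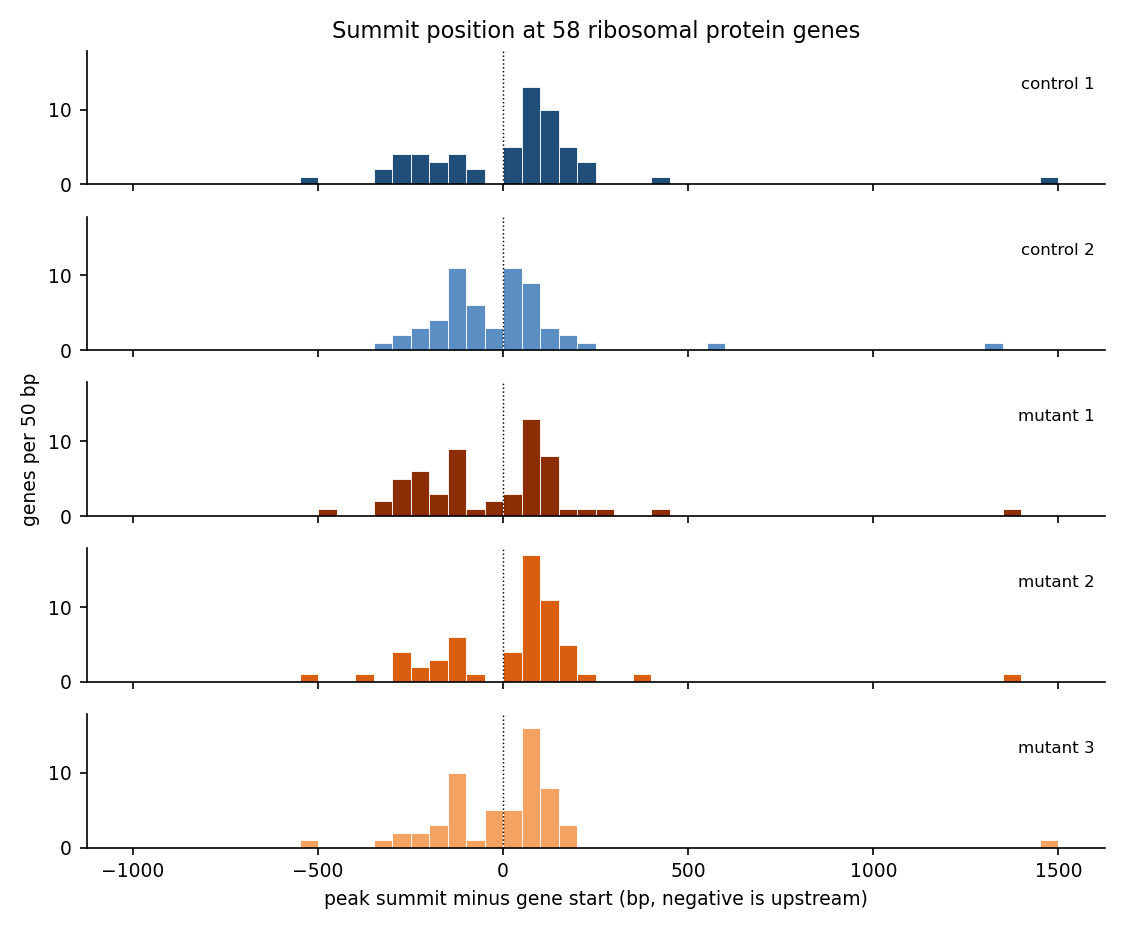
Distance from the annotated start to the peak summit (x axis, bp, negative is upstream) at 58 ribosomal protein genes, as genes per 50 bp (y axis), with a panel for each library. Most summits lie within 250 bp of the start in every library, in an upstream and a downstream group with few summits just before the start; the summit beyond 1000 bp is that of Rpl41.

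Other genes of protein synthesis had peaks like those of the ribosomal proteins. Fau and Rack1, ribosomal protein genes whose names the rule does not take, had a peak in all libraries. Fau, which encodes a ubiquitin-like fusion of a small-subunit protein, had folds of 9.54 and 7.28 in the controls against 7.10, 8.54 and 4.88 in the mutants. The mitochondrial ribosomal protein gene Mrpl49 had identical folds in all 5 libraries, so this peak cannot be given to Fau alone. Rack1, the scaffold on the small subunit, had 11.8 and 11.9, then 9.72, 11.496 and 9.25. All 38 translation factors had a gene-end peak in every library, and their median fold was 1.05 and 1.07 of the ribosomal protein median in the controls against 1.10, 1.04 and 1.15 in the mutants. Of 50 ribosome biogenesis genes 48 had a peak in every library, at 0.955 and 0.979 in the controls against 0.961, 0.991 and 1.02 in the mutants. The helicase gene Ddx56 had none, and Ubtf, the RNA polymerase I factor, had a weak peak of 2.77 in control 1 alone.

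Mitochondrial ribosomal protein genes, encoded in the nucleus for the ribosome inside mitochondria, had peaks in most cases as well, with lower folds. Of 78 such genes 74 had a gene-end peak in every library, and their median fold was 0.883 and 0.833 of the cytosolic median in the controls against 0.902, 0.875 and 0.907 in the mutants. It was below the cytosolic median in all 5 libraries. Mrpl4 had no gene-end peak, Mrpl22 had 1 in mutant 1 alone (3.39), and Mrps2 and Mrps23 were missing from mutant 3 alone. In the other libraries Mrps2 had folds of 5.72, 5.66, 3.86 and 4.93, and Mrps23 had 4.16, 3.10, 2.78 and 4.27. The differences between lists are descriptions of these libraries.

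**Figure D5:**
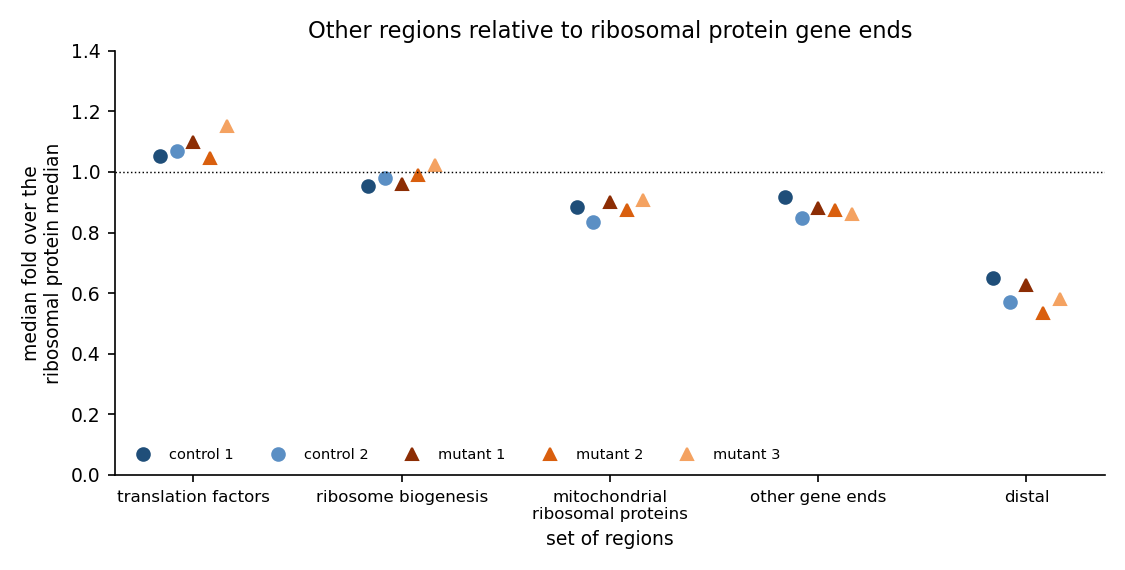
Median fold of 5 sets of regions divided by the ribosomal protein median of the same library (y axis, linear from 0; the dotted line is 1), with circles for controls and triangles for mutants. Translation factors lie above 1, mitochondrial ribosomal proteins and other gene ends below it, and distal regions lowest, with no order by genotype that all sets share. The gene lists cover principal regions only, while other gene ends include second regions.

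In all, 34 library values were compared between genotypes with the exact permutation test, those of pseudogenes given further on included, and 19 of them gave its smallest p of 0.2. After Benjamini-Hochberg adjustment over the 34 the lowest p was 0.358, so no comparison passed a threshold of 0.05 and none could have.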

How the data were processed

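ATAC-seq libraries of 5 embryos (2 controls, 3 mutants) were analysed from 1 peak list per library. The submitters' processing notes name bcl2fastq 2.20.0, Bowtie2 2.3.5, MACS2 and the build mm10. The version and options of MACS2, and any shift of reads for the transposase, are not stated there. The authors deposited for each peak a start, an end and a summit offset (other values, in bp), an integer score that was not used here, a ratio (fold of pileup over background), a −log10 p-value and a −log10 q-value. The fold is the authors' own and is scaled within a library only. A list holds only peaks above the caller's threshold, so a missing peak is not a signal of 0.

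Peaks on chromosomes 1 to 19 and X were merged at 1 bp of overlap, and regions within 1 kb of either gene end were assigned to genes of the RefSeq table (GRCm38.p6). A library's fold at a region is that of its strongest peak. Promoter windows came from RefSeq. Members and lists were chosen with earlier results of these data known, and no list is independent evidence. Named genes are those without a peak in all libraries, the 6 highest and 6 lowest by mean rank, the 4 largest and 4 lowest rank differences, Rpsa, the stalk genes, all paralogues, and examples by alphabet; Rpl9, Rps10 and others named for a lost second region, Rpl4, the X-linked members and Rps29 were added after their values were seen. A few genes that these rules take are not reported here. Groups came from the genotype labels. Group means of library values were compared by exact permutation of the genotypes, two-sided, over all 10 splits. Merging was checked on a small made-up list, and counting on the real lists with mutant peaks removed at randomly picked regions. Python 3.11.15, numpy 2.4.6, pandas 2.3.3, scipy 1.17.1 and matplotlib 3.10.9 were used. Alternatives were other gene-end distances, stricter q, equal list lengths, merging by summits, canonical members, annotated starts, mean fold, pileup, other standards and leaving out each library.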

Additional observations from a re-analysis of the deposited data

How the results depend on the processing

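No p fell under 0.2 in any of 17 alternative settings, so stability concerns direction and counts. The lower median fold of ribosomal protein genes in mutants, narrower peaks and fewer strong distal peaks kept their direction throughout. For the median fold, p was 0.4 (exact permutation test) at annotated starts and with pileup in place of fold. Median pileup at member regions of all libraries was 55 and 71 in the controls against 50, 55 and 42 in the mutants. Control 1 and mutant 2 were thus equal in pileup. Median fold differed by −2.11 to −1.13 and width by −135 to −34.75 bp when libraries were left out. The number of genes with a peak turned from −1.33 to 0.333 with lists at equal length. The ratio of other gene ends to the standard turned from −0.01 to 5.84e-05 at a 0.5 kb distance, to 0.0053 with merging by summits and to 0.0254 without control 1, that of distal regions to 0.0194 and the median rank to −1.21 without control 1. Left-out libraries gave ranges of −0.0463 to 0.0254, −0.0737 to 0.0194 and −1.21 to 3.01 for these, and −349 to −79.3 for strong distal peaks. Strong distal regions above the standard in a mutant ranged from 53.7% to 73.4% with libraries left out, the lowest values coming without either control.

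Member regions absent from every mutant, 3 in the report, numbered 1 at 0.5 kb, 1 at −log10 q of at least 5, 1 at 10 and 0 at equal length, and 3 to 16 with libraries left out. Those without a peak in at least 1 mutant, 15, numbered 8 at 0.5 kb, 1 at equal length and 3 at annotated starts, and 5 to 32 with libraries left out. Equal length removes weak peaks from the longer lists by construction, and annotated starts cover fewer genes. For the other changes the cause was not tested. Of 101 values for single genes 90 stayed within the SD of the gene's mutant ranks around the main value, and 10 moved. The remaining 1 reversed, Rpl6 at 0.54 without mutant 3 (−19.5 without mutant 1). That SD includes mutant 3, so it is wide where mutant 3 is far off. Rpl23, at −1.90 without mutant 3, counts as unchanged by this measure. No paired analysis was possible because the replicate numbers only follow the order of the samples. Read depth is unknown, and the fold floor limits what a missing peak shows.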

Other observations

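Few pseudogenes of ribosomal proteins had a peak nearby. Of 327 ribosomal protein pseudogenes in the gene table, 14 and 17 in the controls against 6, 9 and 5 in the mutants had a region within 1 kb that was not at an end of a protein-coding gene. The groups did not overlap, at the smallest p the design allows (p = 0.2, exact two-sided permutation test). The mean was 57.0% lower in the mutants, in lists with 58.1% fewer distal peaks of any kind. Peaks in all 5 libraries lay near 4 of them: Rpl27a-ps3, Rpl5-ps2, Rps19-ps10 and Rps4l. Rpl5-ps2 had folds of 5.37 and 4.99 in the controls against 5.40, 5.75 and 4.21 in the mutants. Rps4l, a copy of Rps4x that the gene table lists as a pseudogene, had 5.90 and 5.79, then 4.17, 4.93 and 4.71. In each library that fold was above the fold of Rps4x itself, and reads shared between near-identical copies were not tested. Rpl27a-ps3 had 6.76 and 4.99, then 5.09, 3.61 and 3.20, and Rps19-ps10 had 4.85 and 4.18, then 3.70, 3.78 and 4.21. Of the 10 genes named for the S6 kinases, which the symbol rule leaves out, 8 and 7 in the controls against 7, 7 and 6 in the mutants had a gene-end peak.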
